A study of Homo sapiens with 38 samples.

Results

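Loss of ORMDL3 was examined 2 h after the cytokine interleukin 1 beta (IL1B) was added to A549, a line of epithelial cells grown from a human lung adenocarcinoma. The comparison was between the 4 arrays labelled ORMDL3 knockdown and the 4 labelled control at that hour, 8 of the 38 arrays of the series, over all 14488 probe sets. Both groups came from the same line, had 48 h of silencing and 24 h without serum, and then received 1 ng/ml IL1B. The knockdown cells had received a commercial pool of siRNAs against ORMDL3, and the sources used here do not say what the control cells received instead. The other 30 arrays were of the same 2 arms, before IL1B (0 h, with 4 control and 3 knockdown arrays) or later: 4 and 4 arrays at 4 h, 3 and 4 at 8 h, 4 and 4 at 10 h. Nothing in the labels says that replicates were cultured separately, and the p-values therefore rest on a spread between samples that may be technical.

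ORMDL3 belongs to a family of 3 membrane proteins of the endoplasmic reticulum that bind serine palmitoyltransferase, which carries out the first step of sphingolipid synthesis, and restrain it when ceramide is plentiful. The sphingolipids made in this way are later broken down to sphingosine and sphingosine 1-phosphate (S1P), a lipid that leaves the cell and signals through its own receptors. IL1B acts through its receptor and the kinases behind it on the transcription factors NF-kB and AP-1, which switch on cytokine, chemokine and adhesion genes in airway epithelial cells within hours. Common variants near ORMDL3 are known for their association with childhood asthma.

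The 8 arrays had similar distributions, with medians of 8.08 to 8.15 on the log2 scale of the deposited values. Control replicate 4 stood apart from the other controls: the median distance of its probe sets from the mean of the other 3 arrays of its group was 0.14, against 0.088 to 0.10 for those 3 and 0.11 to 0.13 for the knockdown arrays. Its mean over 117 small nucleolar RNA probe sets, 7.13, was also the lowest of the 8, the others lying at 7.30 to 7.48. Markers fitted the label of an epithelial line. The mean of 8 measured epithelial markers was 9.55 to 9.67 in the control arrays and 9.53 to 9.71 in the knockdown arrays, with the keratins KRT7, KRT8 and KRT18 at control means of 12.57, 13.10 and 12.58. The markers varied widely in level. CDH1, KRT19 and EPCAM had control means of 10.31, 9.06 and 7.24. Those of CLDN4 and CLDN7, 6.32 and 5.75, lay below the mean lower quartile of the 8 arrays, 6.65. The mean of 7 detoxifying enzymes typical of A549 was 12.27 to 12.43 and 12.14 to 12.36. Of 10 leukocyte markers 3 were measured (array means of 7.90 to 8.07 in controls and 8.12 to 8.20 in knockdown), and of 10 fibroblast and endothelial markers 2 (6.43 to 6.52 and 6.51 to 6.83). None of these 5 passed the test. The array means of the leukocyte markers did not overlap, however. Among them CD68 had a difference of 0.26 ± 0.08 (limma adjusted p = 0.0517), with every knockdown array above every control. Of 10 alveolar type II markers 3 were measured, all with differences above 0, and their array means did not overlap (8.26 to 8.41 in controls and 8.47 to 8.67 in knockdown). Among them the lipid transporter ABCA3 rose by 0.36 ± 0.10 (limma adjusted p = 0.0281; lost without control replicate 1 or 3 or knockdown replicate 3 or 4, up to 0.135), and LAMP3 had a difference of 0.27 ± 0.09 (adjusted p = 0.0582). The part of these markers in the results was not tested. RNA was measured in bulk, so fewer cells of a type and less RNA per cell cannot be told apart.

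The first question was how far ORMDL3 itself was reduced. Its level was 7.15, 7.38, 7.11 and 7.11 in the control arrays and 5.00, 5.17, 5.32 and 5.10 in the knockdown arrays. Every knockdown array lay below every control array. The means were 7.19 ± 0.13 (SD, n = 4) and 5.15 ± 0.13 (SD, n = 4), a difference of -2.04 ± 0.11 (SE) that left 24.3% of the control level (exact two-sided permutation p = 0.029, the smallest that 4 against 4 arrays can give). The knockdown levels lay below the mean lower quartile of these arrays, 6.65, and the percentage compares array levels, which need not follow the amount of transcript in proportion. In limma's fit over all probe sets the adjusted p was 6.1e-15, and no other probe set differed by more than 1.16 in either direction.

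The paralogs, which share the same task, did not pass the test. ORMDL1 was 8.06 to 8.20 in controls and 7.85 to 8.09 in knockdown, with overlapping groups and a difference of -0.20 ± 0.09 (limma adjusted p = 0.172). ORMDL2 was 11.39 to 11.55 and 11.39 to 11.56, and its difference of -0.01 ± 0.06 (limma adjusted p = 0.912) turned to 0.0039 when each array's median was subtracted.

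**Figure D1:**
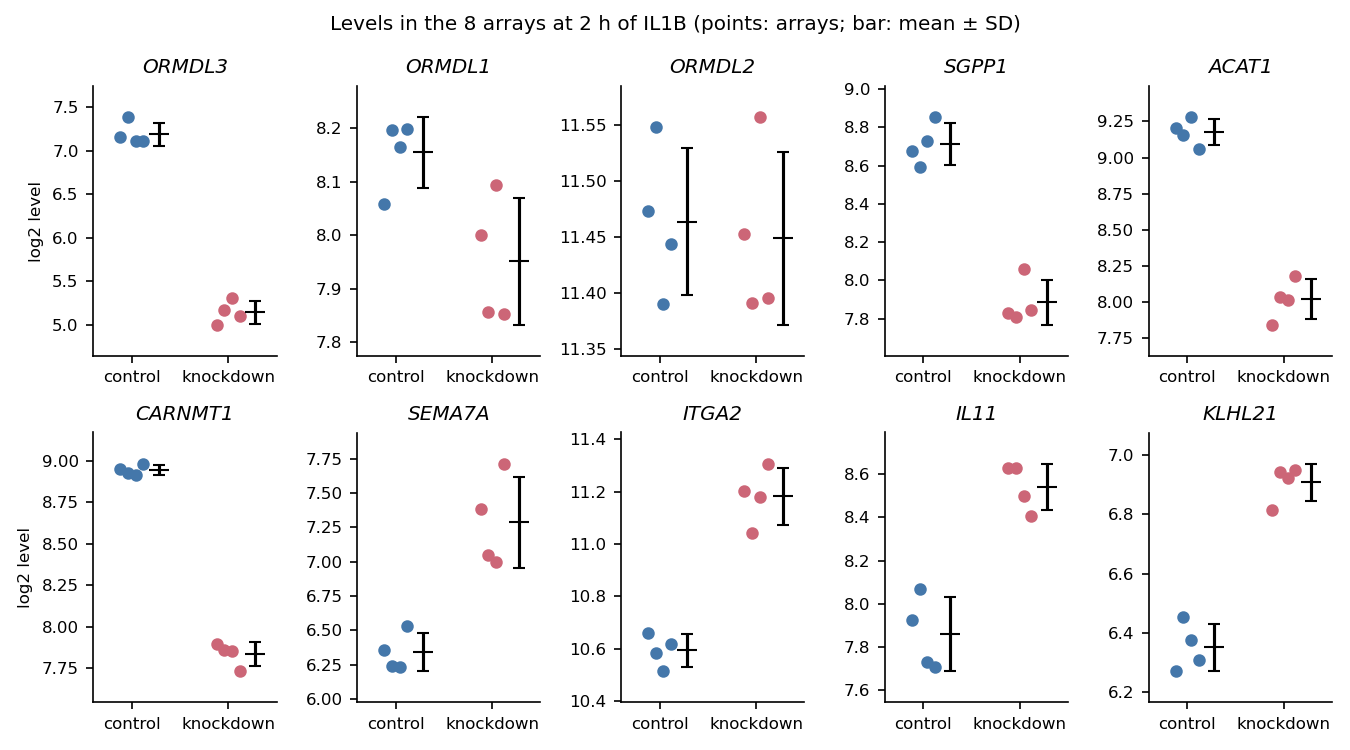
Log2 level of 10 genes in each of the 8 arrays at 2 h of IL1B; points are arrays (4 control, 4 knockdown), and the bar beside them is the mean with its SD. The groups are apart for every gene shown except ORMDL1 and ORMDL2, and the scale differs between panels.

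Across all probe sets, 896 differed between the arms at 2 h (6.18% of those tested, limma adjusted p under 0.05). Of these, 451 were higher (3.11%) and 445 lower (3.07%) in knockdown. Most differences were small: the median was 0.38 among the higher and -0.36 among the lower probe sets, against -0.0071 over all probe sets. Only 44 higher and 42 lower probe sets passed a 1.5-fold change, and beyond 2-fold there were 5 lower ones and no higher one. The 4 knockdown arrays lay wholly above the 4 controls for 375 of the 451 and wholly below for 356 of the 445, while over all probe sets 5.91% were wholly above and 5.78% wholly below. The count depended on single arrays. It was 453, 473 or 392 without control replicate 1, 2 or 3 and 485 without knockdown replicate 1, but rose to 1502 without control replicate 4. With the 8 arrays fitted alone it was 291.

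**Figure D2:**
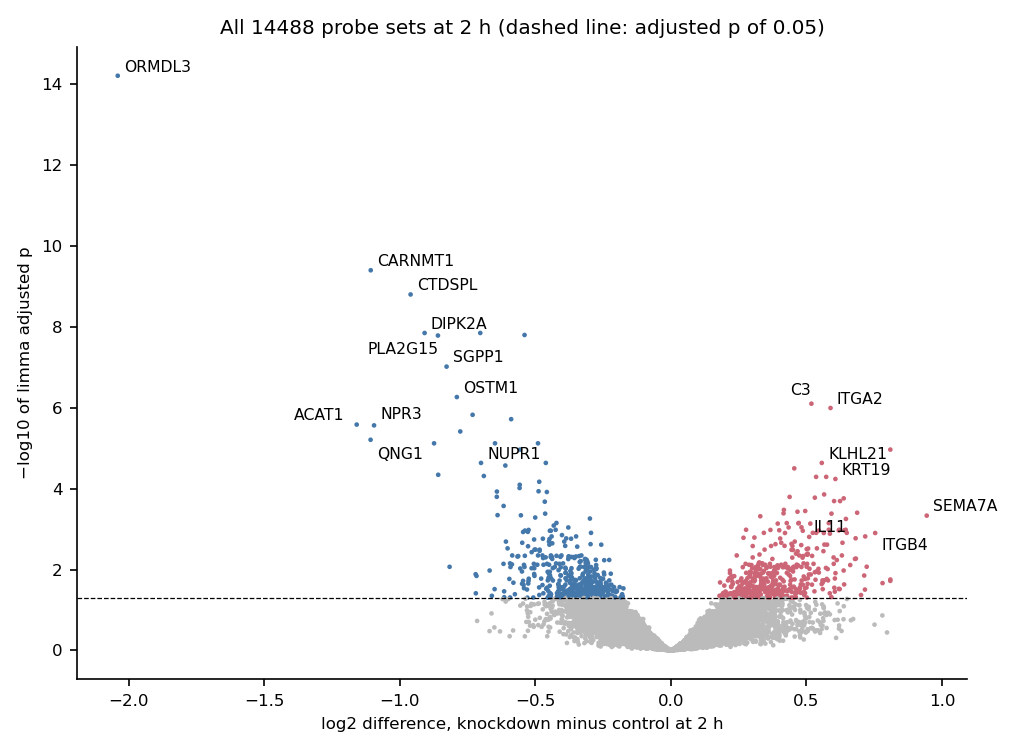
Each point is 1 of the 14488 probe sets; the horizontal axis is the log2 difference between knockdown and control at 2 h, and the vertical axis is -log10 of limma's adjusted p. Red points are the 451 higher and blue points the 445 lower probe sets past the dashed line at 0.05; ORMDL3 stands alone at -2.04, and the next largest difference is that of ACAT1, -1.16.

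After ORMDL3, the strongest falls were in genes of several unrelated functions. ACAT1, the mitochondrial thiolase of ketone body and isoleucine breakdown, was 9.21, 9.16, 9.28 and 9.06 in controls and 7.84, 8.04, 8.01 and 8.18 in knockdown. The groups were far apart, and the difference was -1.16 ± 0.14 (limma adjusted p = 2.6e-06). CARNMT1, which methylates carnosine to anserine, was 8.95, 8.92, 8.91 and 8.98 in controls and 7.89, 7.86, 7.86 and 7.73 in knockdown. No control array overlapped a knockdown array, and its difference was -1.11 ± 0.09 (limma adjusted p = 3.96e-10). QNG1, which frees queuine for reuse in transfer RNA, fell by the same amount (-1.11 ± 0.14), from 8.83 ± 0.13 (SD, n = 4) to 7.72 ± 0.08 (SD, n = 4). NPR3, the receptor that clears natriuretic peptides, fell by 1.10 ± 0.14 on the log2 scale, from 7.45 ± 0.13 (SD, n = 4) to 6.35 ± 0.04 (SD, n = 4).

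The phosphatase gene CTDSPL followed with -0.96 ± 0.08, then DIPK2A with -0.91 ± 0.09 and the fatty acid hydroxylase CYP2U1 with -0.87 ± 0.11. Genes of lysosomes and lipids were also among the 15 strongest falls. PLA2G15, the lysosomal phospholipase A2, fell by 0.86 ± 0.08 on the log2 scale, and OSTM1, the partner of a lysosomal chloride transporter, fell by 0.79 ± 0.09. HHAT, the acyltransferase that lipid-modifies Hedgehog proteins (-0.78 ± 0.10), TMEM19 (-0.73 ± 0.09) and the serine protease inhibitor SERPINI1 (-0.82 ± 0.19) were lower too. Each of these genes had knockdown arrays wholly below the controls and kept its call when any 1 of the 8 arrays was left out. CD274, the immune checkpoint ligand PD-L1, was 7.69, 7.56, 7.75 and 7.09 in controls and 6.81, 6.91, 7.18 and 6.30 in knockdown. Its groups overlapped through control replicate 4, and its difference of -0.72 ± 0.18 (limma adjusted p = 0.0131) lost its call without control replicate 1 or 3 or knockdown replicate 4 (adjusted p = 0.0525 to 0.069) and with the 8 arrays fitted alone. CD274 was also a gene that IL1B raised by 2 h, by 2.53 ± 0.18 in controls and 1.89 in knockdown. These 2 rises differed by -0.64 ± 0.26, which did not pass the test (limma adjusted p = 0.339).

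The strongest rises were smaller than the strongest falls. SEMA7A, a membrane-anchored semaphorin that binds integrins, was 6.36, 6.24, 6.23 and 6.53 in controls and 7.38, 7.05, 7.00 and 7.71 in knockdown. No arrays overlapped, and the difference was 0.94 ± 0.16 (limma adjusted p = 0.000465). The control levels of SEMA7A lay below the mean lower quartile of these arrays, 6.65. ITGB4, the integrin chain that anchors epithelium to laminin, was 10.55, 10.62, 10.56 and 11.06 in controls and 11.45, 11.27, 11.48 and 11.62 in knockdown. Control replicate 4 was the highest control but still below every knockdown array, and the difference was 0.75 ± 0.14 (limma adjusted p = 0.00125).

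Among the other strongest rises, those of the Hedgehog transcription factor GLI2 (0.72 ± 0.17), the nitric oxide synthase NOS1 (0.72 ± 0.14), BEAN1 (0.69 ± 0.12), the matrix protein SPARC (0.68 ± 0.15), the cytokine IL11 (0.68 ± 0.13), the amino acid transporter SLC6A17 (0.68 ± 0.15) and the actin-binding protein ABLIM3 (0.65 ± 0.12) kept their calls with each array left out. SLC6A17 lost its call with the 8 arrays fitted alone. The calls of the ubiquitin ligase MARCHF4 (0.81 ± 0.21, limma adjusted p = 0.0177), the cytoskeletal protein NAV2 (0.78 ± 0.21, 0.0217), the GABA receptor subunit GABRE (0.72 ± 0.20, 0.0314), the sialomucin PODXL (0.71 ± 0.18, 0.0141) and the calcium-binding protein CALB2 (0.70 ± 0.21, 0.0428) were each lost without control replicate 1 or 3 and without 1 to 4 other arrays, with adjusted p up to 0.0769, 0.0692, 0.0972, 0.0628 and 0.159. That of the potassium channel KCNMA1 (0.66 ± 0.15) was lost without control replicate 2 (adjusted p = 0.0504).

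The enzymes around the target of ORMDL3 were described next. In the list of sphingolipid de novo synthesis, 13 genes were measured and ORMDL3 was the 1 that changed. All 13 differences were below 0, with a median of -0.14 against -0.0071 over all probe sets. The serine palmitoyltransferase subunits SPTLC1 (-0.16 ± 0.09, limma adjusted p = 0.259) and SPTLC2 (-0.08 ± 0.08, adjusted p = 0.592) did not pass the test. The lowest value after ORMDL3 was that of the ceramide synthase CERS5, -0.52 ± 0.25 (adjusted p = 0.198), whose control arrays spread from 9.49 to 10.42.

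Genes that break down sphingolipids and handle S1P changed in both directions. Of 31 measured, 4 were lower and 2 higher (19.4% called, against 6.18% of all probe sets), and the median was 0.0099. SGPP1, the phosphatase of the endoplasmic reticulum that turns S1P back into sphingosine, was 8.68, 8.59, 8.73 and 8.85 in controls and 7.83, 7.81, 8.06 and 7.85 in knockdown. Knockdown replicate 3 was the highest knockdown array and still lay well below the lowest control. The difference of -0.83 ± 0.09 (limma adjusted p = 9.57e-08) left 56.3% of the control level. SPHK1, the kinase that makes S1P, was 7.90, 7.65, 7.64 and 7.85 in controls and 8.19, 8.30, 8.36 and 8.73 in knockdown. Its groups did not overlap, and it rose by 0.63 ± 0.13 (limma adjusted p = 0.00218). The S1P lyase gene SGPL1 had a difference of -0.06 ± 0.06 (limma adjusted p = 0.596).

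Among the ceramidases, ACER2 of the Golgi fell by 0.50 ± 0.10 on the log2 scale (limma adjusted p = 0.00322) and the acid ceramidase ASAH1 fell by 0.27 ± 0.08 (adjusted p = 0.03). HEXA, a subunit of the lysosomal enzyme that trims gangliosides, fell by 0.24 ± 0.07 (adjusted p = 0.0307), and the acid sphingomyelinase SMPD1 rose by 0.35 ± 0.10 (adjusted p = 0.0276). The calls of SGPP1, SPHK1 and ACER2 held with each array left out. Those of ASAH1, HEXA and SMPD1 were lost with 5, 4 and 4 of the 8 arrays left out in turn (adjusted p up to 0.104, 0.103 and 0.0752), control replicate 3 among them each time.

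**Figure D3:**
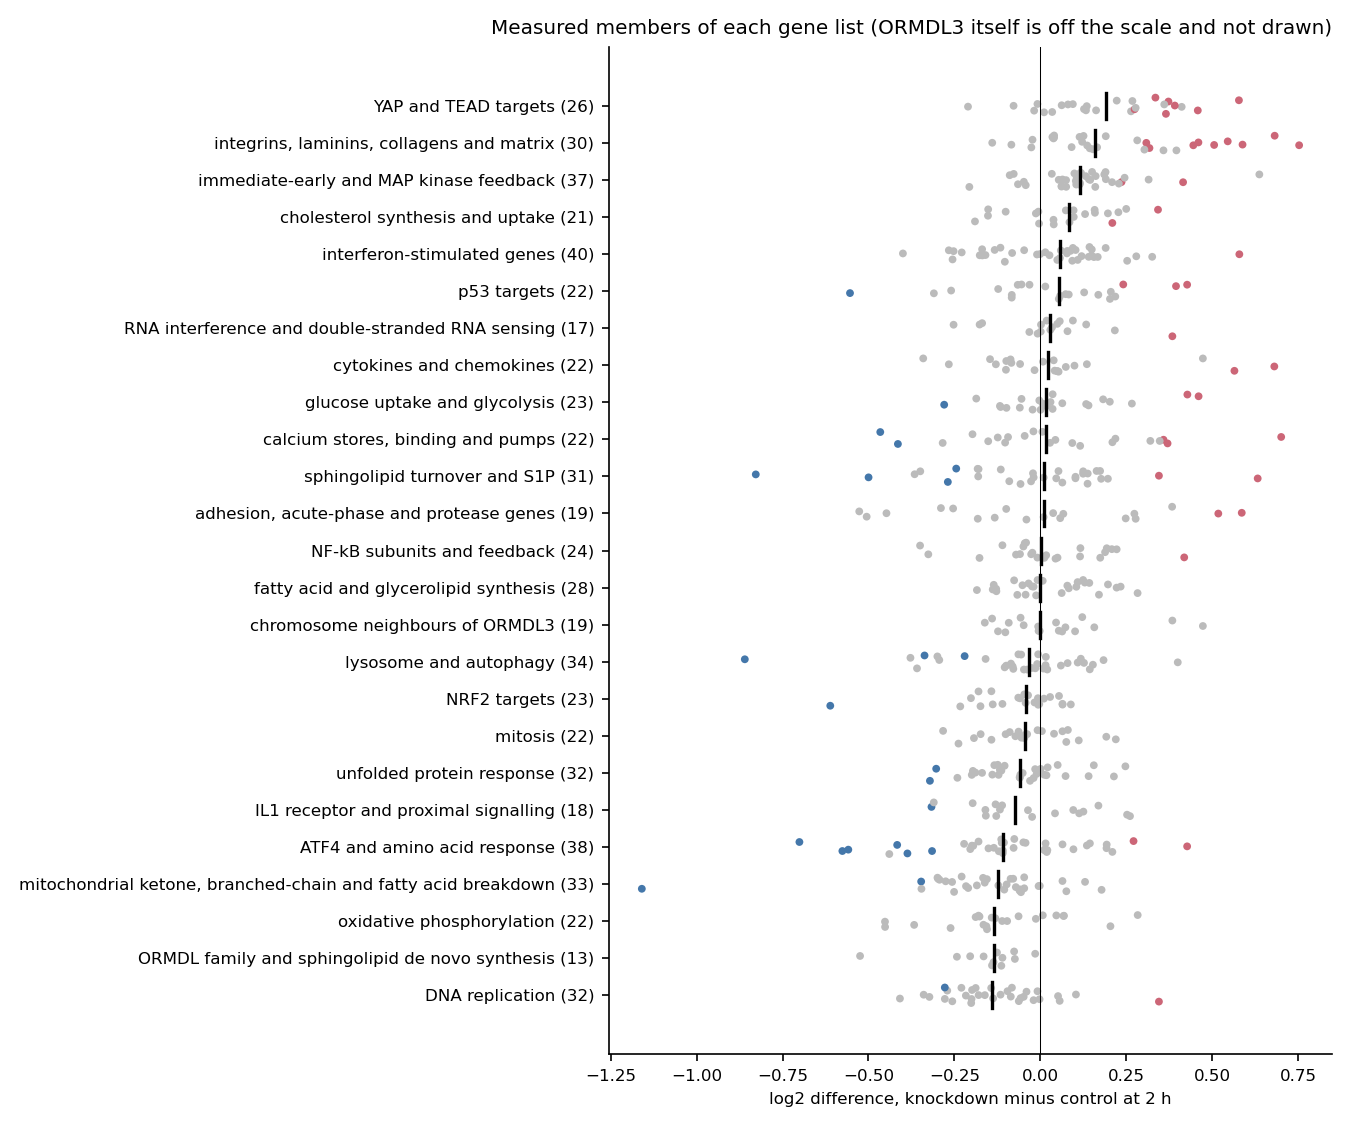
Log2 difference between knockdown and control at 2 h for the measured members of 25 gene lists, ordered by their median (black bar; the number of measured members is in brackets). Red and blue points passed limma's test as higher or lower, and grey points did not; the 2 lists with the highest medians, YAP and TEAD targets at 0.19 and integrins and matrix at 0.16, hold 7 and 9 higher members and no lower one.

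Genes of integrins and matrix stood highest in number of rises. Of 30 measured, 9 rose (30.0%, against 6.18% of all probe sets called in either direction), none fell, and 26 of the differences were above 0. ITGA2, the collagen-binding integrin chain, was 10.66, 10.58, 10.51 and 10.62 in controls and 11.20, 11.04, 11.18 and 11.31 in knockdown. The groups were clearly apart, and the difference was 0.59 ± 0.07 (limma adjusted p = 1.01e-06). Beside ITGB4 and SPARC, the glycoprotein TNC rose by 0.55 ± 0.13, the collagens COL5A1 and COL4A1 by 0.51 ± 0.10 and 0.45 ± 0.13, the crosslinking enzyme LOXL2 by 0.46 ± 0.13, and the integrin chains ITGA5 and ITGA3 by 0.32 ± 0.08 and 0.31 ± 0.09. The count fell to 5 without control replicate 1 or knockdown replicate 1, and was 10 without control replicate 4. ITGA2, ITGB4, SPARC and COL5A1 kept their calls with every array left out in turn. LOXL2 and ITGA3 lost theirs with the 8 arrays fitted alone.

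Targets of the growth regulators YAP and TEAD, which respond to cell shape and contact, showed the same one-sided count. Of 26 measured members 7 were higher (26.9%, against 6.18% of all probe sets called in either direction) and none lower. AXL, a receptor tyrosine kinase, rose by 0.58 ± 0.14 (limma adjusted p = 0.00975; 0.0525 without knockdown replicate 4). The muscle ankyrin repeat protein ANKRD1 rose by 0.46 ± 0.14 (limma adjusted p = 0.0486), the phosphatase PTPN14 by 0.39 ± 0.12 (0.0388) and the junction protein AMOTL1 by 0.37 ± 0.10 (0.025). The matricellular protein CCN2 rose by 0.37 ± 0.11 (limma adjusted p = 0.049), the ectonucleotidase NT5E by 0.34 ± 0.09 (0.0188) and the Hippo kinase LATS2 by 0.27 ± 0.08 (0.0339). The count fell to 2 without control replicate 1, 2 or 3 or knockdown replicate 3 or 4 and to 4 without knockdown replicate 1, and rose to 9 without control replicate 4. The median stayed between 0.17 and 0.26 in these fits. With the 8 arrays fitted alone AMOTL1 kept its call, and AXL, ANKRD1, PTPN14, CCN2, NT5E and LATS2 lost theirs. 1 of the 8 epithelial markers, keratin 19, moved with these lists: KRT19 was 8.98 to 9.18 in controls and 9.54 to 9.72 in knockdown, a rise of 0.61 ± 0.09 (limma adjusted p = 5.77e-05), whose part in the counts of these lists was not tested. The other 7 did not pass, 5 of them had differences below 0 (EPCAM at -0.36 ± 0.14, adjusted p = 0.117), and the median of the 8 was -0.0055.

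Among 22 measured cytokines and chemokines 2 rose and none fell (9.1% called, against 6.18% of all probe sets), and in the other inflammatory and signalling lists that follow the share called was 2.5% to 10.5%. The neutrophil chemokine CXCL8 differed by 0.05 ± 0.10 (limma adjusted p = 0.803; -0.0193 without control replicate 3), the chemokine CCL20 by -0.08 ± 0.15 (adjusted p = 0.771), and IL6 by -0.13 ± 0.12 (adjusted p = 0.544).

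The 2 cytokine genes that rose were IL11 and EBI3. IL11, a cytokine of the IL6 family, was 7.93, 8.07, 7.73 and 7.71 in controls and 8.63, 8.63, 8.50 and 8.41 in knockdown. EBI3, the beta chain shared by IL27 and IL35, was 8.81, 8.85, 8.72 and 8.69 in controls and 9.54, 9.43, 9.30 and 9.06 in knockdown. Neither gene's groups overlapped. The differences were 0.68 ± 0.13 (limma adjusted p = 0.00169) and 0.57 ± 0.09 (adjusted p = 0.000139). By 2 h, IL1B had changed IL11 by 0.12 ± 0.13 in controls and 0.05 in knockdown, and EBI3 by 2.46 ± 0.09 and 2.11.

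In the list of NF-kB subunits and feedback genes 1 of 24 rose, the adaptor TRAF1 (0.42 ± 0.12, limma adjusted p = 0.0332; lost with 5 of the 8 arrays left out in turn, the 3 other controls than replicate 4 and knockdown replicates 2 and 4, adjusted p up to 0.126). The inhibitor TNFAIP3 differed by -0.02 ± 0.07 (adjusted p = 0.873). At 0 h the same list held 7 higher and 1 lower member. Of 18 genes of the IL1 receptor and its proximal kinases, the receptor accessory chain IL1RAP fell by 0.32 ± 0.09 on the log2 scale (adjusted p = 0.0356; lost with 5 arrays left out in turn, control replicates 1 and 3 and knockdown replicates 1, 2 and 3, adjusted p up to 0.143).

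Among 37 immediate-early and MAP kinase feedback genes, 31 differences were above 0 and 2 passed: the AP-1 subunit FOSL1 (0.42 ± 0.11, limma adjusted p = 0.0196) and the phosphatase DUSP10 (0.24 ± 0.07, adjusted p = 0.0392). Neither call held without control replicate 2 or 3 or knockdown replicate 1 or 2 (adjusted p up to 0.0683 and 0.115). Adhesion molecules, acute-phase proteins and proteases held 2 rises in 19 genes. Complement C3 was 10.76, 10.86, 10.77 and 10.81 in controls and 11.40, 11.29, 11.40 and 11.20 in knockdown. It was clear of overlap and rose by 0.52 ± 0.06 (limma adjusted p = 7.9e-07). The gelatinase MMP9 rose by 0.59 ± 0.11 (adjusted p = 0.0013), and the adhesion molecule ICAM1 differed by -0.04 ± 0.11 (adjusted p = 0.852), turning to 0.0035 without knockdown replicate 4. Of 40 interferon-stimulated genes only IFITM3 passed (0.58 ± 0.15, adjusted p = 0.0186), with overlapping groups and a call lost without knockdown replicate 1 or any control but replicate 4 (adjusted p up to 0.0838).

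Because FOSL1 is a subunit of AP-1, the promoters of the genes that changed were read for its letters, TGANTCA, with N standing for any base. The search covered the 250 bases before each gene's start in the RefSeq promoter table (GRCh38.p14), on both strands. A promoter was matched for 9531 of the 11893 tested genes with 1 symbol. The letters stood in 21 of 307 higher genes (6.8%), in 12 of 343 lower genes (3.5%), in 375 of the 9531 (3.9%) and in 1801 of all 27305 promoters (6.6%). The share among higher genes was above that of tested genes and close to that of all promoters, and was given no test. Among YAP and TEAD targets with a promoter, the AP-1 letters stood in 1 of 7 higher genes and in 2 of 19 measured genes. The higher gene was ANKRD1, whose middle base is T, while the other genes printed below have C or G there. In integrin and matrix genes they stood in 0 of 25 measured. The letters of a kB site (GGGNNTTCC) stood in 7.5% of higher, 6.7% of lower and 7.3% of tested genes and 5.8% of all promoters, and those of a sterol response element (TCACNCCAC) in 1.0%, 0.6%, 0.8% and 0.9%. Each motif was counted by itself, so matches of different motifs may overlap. The stretches that end at the start of 4 higher genes are printed here, with the AP-1 letters in capitals (1 match in each stretch). These genes carry results on cytokines, YAP targets and the hour of change, and all 4 hold a match. They are therefore not typical of the higher genes, of which 21 of 307 did. The printed lengths, 130 to 210 bases, were set for each gene. A match describes the letters only.
IL11 (chr19:55370464-55370613, minus strand): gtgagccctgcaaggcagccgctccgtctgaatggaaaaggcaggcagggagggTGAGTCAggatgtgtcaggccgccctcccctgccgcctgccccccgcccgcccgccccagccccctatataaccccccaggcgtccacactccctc
EBI3 (chr19:4229393-4229522, plus strand): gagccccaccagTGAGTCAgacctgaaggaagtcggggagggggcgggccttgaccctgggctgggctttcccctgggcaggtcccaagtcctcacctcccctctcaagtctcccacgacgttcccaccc
KLHL21 (chr1:6602870-6603069, minus strand): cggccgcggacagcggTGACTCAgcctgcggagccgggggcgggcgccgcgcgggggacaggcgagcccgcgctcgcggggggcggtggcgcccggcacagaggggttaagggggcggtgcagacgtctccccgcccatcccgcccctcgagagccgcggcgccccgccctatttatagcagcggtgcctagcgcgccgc
ANKRD1 (chr10:90921088-90921297, minus strand): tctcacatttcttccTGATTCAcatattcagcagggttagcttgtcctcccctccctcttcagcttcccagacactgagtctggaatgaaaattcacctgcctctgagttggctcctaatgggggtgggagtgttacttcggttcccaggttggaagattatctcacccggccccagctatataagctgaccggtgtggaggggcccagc

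Of 38 measured stress genes of the ATF4 and amino acid response, 6 were lower and 2 higher (21.1% called, against 6.18% of all probe sets), with a median of -0.11. The stress regulator NUPR1 was 8.43, 8.40, 8.48 and 8.64 in controls and 7.66, 7.61, 8.07 and 7.81 in knockdown, a fall of 0.70 ± 0.10 with no overlap (limma adjusted p = 2.31e-05). The stress cytokine GDF15 fell by 0.56 ± 0.09 (adjusted p = 9.64e-05), and the glutamine transporter SLC1A5 fell by 0.39 ± 0.08 (adjusted p = 0.0017), and both calls held with each array left out; a second, dimmer probe set of SLC1A5 did not pass (-0.37 ± 0.20). The serine synthesis enzymes PSPH (-0.58 ± 0.17) and PSAT1 (-0.31 ± 0.09) and the glutathione-degrading enzyme CHAC1 (-0.42 ± 0.12) also fell, while the sestrin SESN2 (0.43 ± 0.10) and the pseudokinase TRIB3 (0.27 ± 0.08) rose. The calls of PSPH, PSAT1, CHAC1 and TRIB3 (limma adjusted p = 0.0409, 0.0242, 0.0343 and 0.0332) were lost with 7, 4, 5 and 6 of the 8 arrays left out in turn. Adjusted p then reached 0.149, 0.122, 0.126 and 0.12. Those of PSAT1, CHAC1 and TRIB3 were also lost with the 8 arrays fitted alone. The lower count was 3 without control replicate 2 or 3 or knockdown replicate 1, and the higher count 0 without control replicate 1 and 1 without control replicate 2 or 3 or knockdown replicate 2, 3 or 4. HMOX1, heme oxygenase, was the 1 of 23 NRF2 targets to change. It was 10.97 to 11.29 in controls and 10.34 to 10.68 in knockdown, a fall of 0.61 ± 0.09 (limma adjusted p = 2.68e-05).

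The unfolded protein response, which ORMDL3 has been linked to through the endoplasmic reticulum, had 2 falls among 32 measured genes, a share (6.2%) near the 6.18% of all probe sets. These were DERL2 (-0.32 ± 0.07, limma adjusted p = 0.00867) and SEL1L (-0.30 ± 0.08, adjusted p = 0.0165), both parts of the machinery that withdraws misfolded proteins from the endoplasmic reticulum. Both calls were lost with the 8 arrays fitted alone, and that of SEL1L without control replicate 3 or knockdown replicate 4 (adjusted p = 0.0602 to 0.0771). HSPA5, the main chaperone of that compartment, differed by 0.02 ± 0.06 (adjusted p = 0.865; -0.0311 without control replicate 4). Of 22 genes of calcium stores and pumps 3 rose and 2 fell (22.7% called, against 6.18% of all probe sets). CALB2 and the pumps ATP2A3 (0.37 ± 0.09) and ATP2B4 (0.36 ± 0.09) rose. The channel TRPC1 (-0.47 ± 0.08) and the calcium-binding protein RCN2 (-0.41 ± 0.12) fell. CALB2 and RCN2 each lost their call with 6 of the 8 arrays left out in turn. These were all but control replicate 4 and knockdown replicate 3 (adjusted p up to 0.159 and 0.102).

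In the lists of lipid and energy genes the share called was 0.0% to 13.0%, against 6.18% of all probe sets. In cholesterol synthesis and uptake 2 of 21 rose (9.5%), INSIG1, which holds back sterol-regulated transcription factors (0.34 ± 0.06, limma adjusted p = 0.00124), and the factor SREBF2 (0.21 ± 0.06, adjusted p = 0.0484; lost with 6 arrays left out in turn, every array but control replicate 4 and knockdown replicate 2, adjusted p up to 0.189). The synthesis enzyme HMGCS1 differed by 0.25 ± 0.12 (adjusted p = 0.214; 0.0386 with the replicate number as a fixed block), and none of 28 fatty acid and glycerolipid genes passed. Of 33 genes of mitochondrial ketone, branched-chain and fatty acid breakdown, 29 differences were below 0 and 2 passed (6.1%), ACAT1 and the dehydrogenase ACADSB (-0.35 ± 0.11, adjusted p = 0.0485). ACADSB lost its call without any array but control replicate 4 (adjusted p up to 0.141). The count of lower members in this list was 1 without any array but control replicate 4, and 7 without that array.

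Of 22 genes of oxidative phosphorylation, 16 differences were below 0 and none passed. In 34 lysosome and autophagy genes 3 fell (8.8%), PLA2G15, the autophagy factor ATG5 (-0.34 ± 0.08) and the membrane protein LAMP2 (-0.22 ± 0.06); there were 5 without control replicate 4. LAMP2 lost its call without control replicate 1 or knockdown replicate 1 or 2 (adjusted p = 0.0623 to 0.10). Glycolysis held 2 rises in 23, SLC2A3 (0.43 ± 0.13) and PFKFB4 (0.46 ± 0.14), and 1 fall, the glucose transporter SLC2A1 (-0.28 ± 0.07), or 13.0% called. SLC2A3 lost its call with any array left out, PFKFB4 with 5 and SLC2A1 with 3 of them left out in turn, control replicates 1 and 3 in both cases (adjusted p up to 0.117, 0.159 and 0.0783).

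None of 22 mitosis genes passed. Of 32 DNA replication genes 28 differences were below 0 and 2 passed (6.2%, against 6.18% of all probe sets): the cyclin CCND1 rose (0.35 ± 0.07, limma adjusted p = 0.00322) while the clamp loader subunit RFC3 fell (-0.28 ± 0.08, adjusted p = 0.0312; lost with 5 arrays left out in turn, control replicates 1 and 3 and knockdown replicates 1, 2 and 4, adjusted p up to 0.143). In 22 p53 targets, SESN2, the cell death genes BBC3 (0.40 ± 0.09) and FAS (0.24 ± 0.07) rose, and TP53INP1 fell by 0.55 ± 0.10 on the log2 scale (adjusted p = 0.000457), 18.2% called. FAS lost its call with 5 arrays left out in turn, control replicates 2, 3 and 4 and knockdown replicates 1 and 2 (adjusted p up to 0.164), and BBC3 without knockdown replicate 1 (adjusted p = 0.06). None of 19 measured neighbours of ORMDL3 on its chromosome passed. Of 17 genes of RNA interference and double-stranded RNA sensing, DICER1 rose (0.38 ± 0.12, adjusted p = 0.0476), with control replicate 4 overlapping the knockdown arrays and a call lost with 6 arrays left out in turn, every array but control replicate 4 and knockdown replicate 2 (adjusted p up to 0.136).

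The arrays of the other hours, which share no sample with those at 2 h, were then used to ask whether the same probe sets moved there. Of the 451 probe sets higher at 2 h, 87.4%, 96.5%, 91.1% and 79.4% were also above 0 at 0, 4, 8 and 10 h, against 53.6%, 48.4%, 43.2% and 48.3% of all probe sets. Of the 445 lower ones, 78.9%, 93.5%, 96.4% and 81.3% were below 0 at those hours, against 46.4%, 51.6%, 56.8% and 51.7%. All 4 other hours had the sign of 2 h for 320 of the higher (71.0%) and 287 of the lower (64.5%) probe sets, against 15.6% and 17.0% of all. The median difference of the higher probe sets was 0.20, 0.23, 0.23 and 0.13 at 0, 4, 8 and 10 h, and that of the lower ones -0.12, -0.18, -0.22 and -0.11, all smaller than at 2 h, the hour that chose them.

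**Figure D4:**
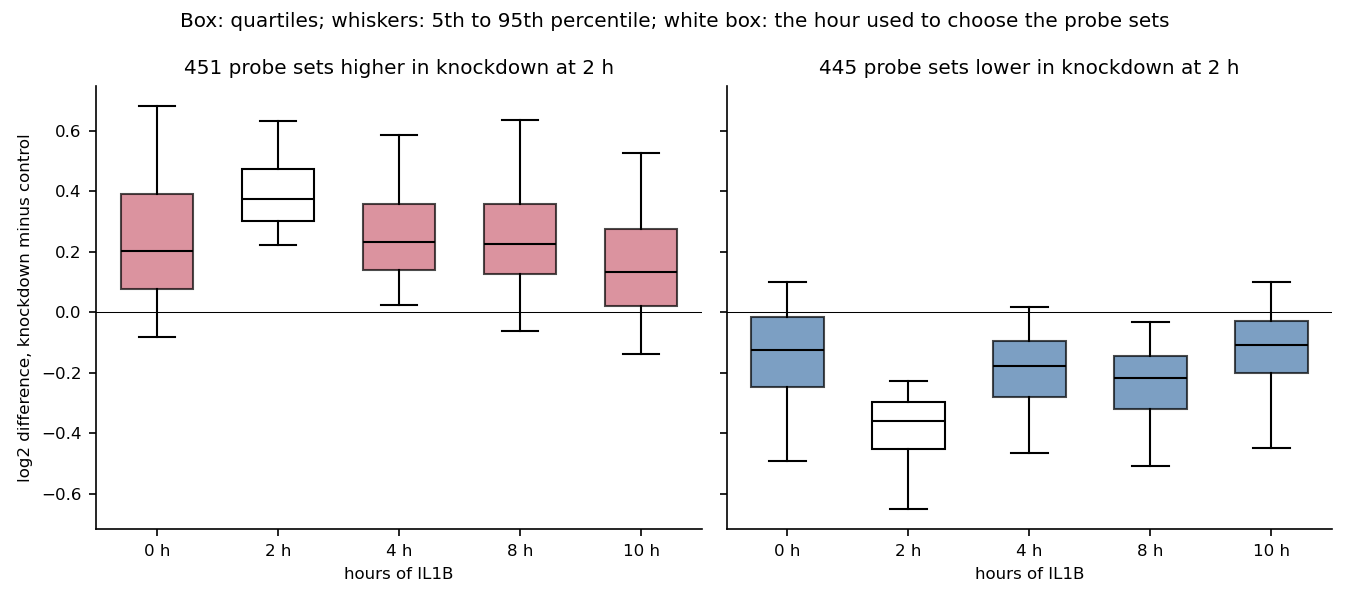
Log2 differences between knockdown and control at each hour for the probe sets called higher (left, 451) or lower (right, 445) at 2 h; boxes are quartiles and whiskers the 5th and 95th percentiles over probe sets. The white box marks 2 h, whose arrays chose the probe sets; the medians at the other hours keep its sign but are smaller.

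Calls coincided less often than signs. Of the 451 higher probe sets, 133 were also called higher at 0 h (29.5% of the list at 2 h and 39.5% of that at 0 h), 107 at 4 h (23.7% and 66.5%), 112 at 8 h (24.8% and 47.9%), and for 10 h the overlap was 64 (14.2% and 40.5%). Of the 445 lower ones it was 59 (13.3% and 41.3%), 64 (14.4% and 60.4%), 84 (18.9% and 45.9%) and 55 (12.4% and 32.0%). In all, 30 higher and 23 lower probe sets passed at all 5 hours, and 231 and 324 passed at 2 h alone; 1 probe set was called in the opposite direction, at 10 h. The counts of calls in either direction were 480 at 0 h (3.31%), 267 at 4 h (1.84%), 417 at 8 h (2.88%) and 330 at 10 h (2.28%).

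Several genes described above moved at every hour. SGPP1 differed by -0.80, -0.79, -0.58 and -0.72 at 0, 4, 8 and 10 h, CARNMT1 by -0.88, -0.79, -0.73 and -0.73, NUPR1 by -0.90, -0.59, -0.77 and -0.84, ITGA2 by 0.71, 0.53, 0.39 and 0.41, and KRT19 by 0.53, 0.52, 0.68 and 0.66. All of these passed limma's test. Others did so at fewer hours. IL11 differed by 0.75 before IL1B (adjusted p = 0.0015), but by 0.28, 0.13 and -0.02 at 4, 8 and 10 h, while its control level, 7.86 ± 0.17 (SD, n = 4) at 2 h, stood at 10.60 ± 0.18 (SD, n = 4) by 10 h. EBI3 differed by 0.92 at 0 h (adjusted p = 9.7e-08) and by 0.09, 0.28 and 0.07 later. SPHK1 passed at 4 h (0.55) but had 0.32, 0.30 and 0.18 at 0, 8 and 10 h.

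Whether any difference was particular to 2 h was tested directly. Against the mean difference of the other 4 hours, 3 of the 14488 probe sets passed (0.0207%; 1483 had an unadjusted p under 0.05), each with an adjusted p of 0.0188. KLHL21, a substrate adaptor of a ubiquitin ligase that acts in cell division, was 6.27, 6.45, 6.38 and 6.31 in controls and 6.82, 6.94, 6.92 and 6.95 in knockdown at 2 h. These control levels lay below the mean lower quartile of the arrays at 2 h, 6.65. The difference of KLHL21 was 0.56 ± 0.08 at that hour and 0.12, 0.18, 0.02 and -0.10 at 0, 4, 8 and 10 h, so that 2 h exceeded the mean of the others by 0.50 ± 0.09. From 0 h to 2 h its level changed by -0.09 in controls and by 0.35 in knockdown, and by 4 h both arms stood at 6.93 ± 0.17 (SD, n = 4) and 7.10 ± 0.16 (SD, n = 4).

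FGF18, a growth factor that IL1B raised by 2.76 ± 0.10 in controls and 3.32 in knockdown, was 9.47, 9.61, 9.41 and 9.64 in controls and 9.98, 9.77, 9.94 and 9.89 in knockdown. It was higher in knockdown at 2 h (0.36 ± 0.10, limma adjusted p = 0.0272) and had differences of -0.20, -0.30, -0.25 and -0.32 at 0, 4, 8 and 10 h, none of which passed, and 2 h exceeded their mean by 0.63 ± 0.11. Its mean level was highest at 4 h in controls (9.87) and at 2 h in knockdown (9.90). ATP2B4, a calcium pump of the plasma membrane, was 8.34 to 8.43 in controls and 8.67 to 8.82 in knockdown, a difference of 0.36 ± 0.09 against -0.31, 0.12, -0.25 and -0.33 at the other hours. It exceeded their mean by 0.55 ± 0.10 and the difference at 0 h by 0.67 ± 0.13 (limma adjusted p = 0.0425). These 3 calls were sensitive to single arrays: none was left without control replicate 1 or 3 or knockdown replicate 2 or 3, 1 without knockdown replicate 1, and 5 and 6 probe sets passed without control replicate 4 and knockdown replicate 4. That of ATP2B4 against 0 h was lost with 12 arrays left out in turn, all of those at 2 h but control replicate 4, control 0 h replicates 1, 3 and 4 and knockdown 0 h replicates 1 and 4 (adjusted p = 0.0534 to 0.151).

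**Figure D5:**
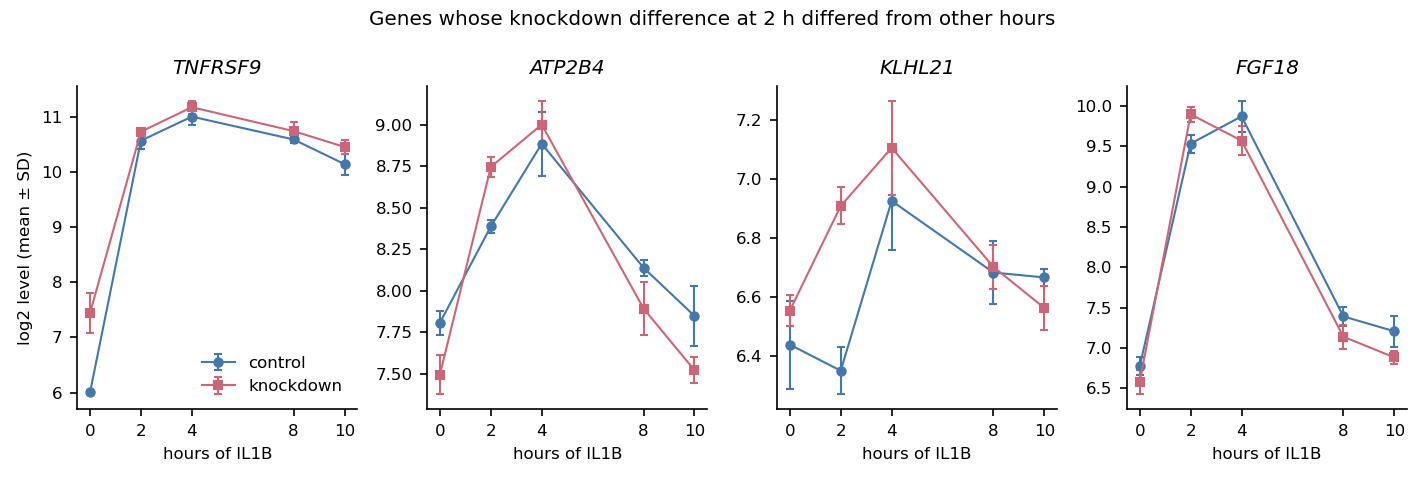
Mean log2 level with its SD at 0, 2, 4, 8 and 10 h of IL1B in control (circles) and knockdown (squares) cells for 4 genes whose difference at 2 h differed from that at 0 h or from the mean of the other hours. TNFRSF9 is apart at 0 h, and ATP2B4, KLHL21 and FGF18 are higher in knockdown at 2 h.

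Against 0 h alone, 4 probe sets passed (0.0276%; 1836 had an unadjusted p under 0.05), and 10 did without control replicate 4. The strongest was TNFRSF9, the costimulatory receptor 4-1BB, which was higher in knockdown before IL1B (7.44 ± 0.36, SD, n = 3, against 6.00 ± 0.04, SD, n = 4) and rose in both arms by 2 h, when controls were at 10.56 ± 0.15 (SD, n = 4) and knockdown arrays at 10.73 ± 0.05 (SD, n = 4). Its difference went from 1.44 to 0.16 ± 0.11, a change of -1.27 ± 0.16 (limma adjusted p = 4.84e-05) that held with each array of both hours left out. The control mean of TNFRSF9 at 0 h lay below the lower quartiles of those control arrays, 6.61 to 6.66. The other probe sets were ATP2B4 and 2 with no gene symbol, whose difference changed by -0.96 and -0.71 from 0 h to 2 h (adjusted p = 0.00186 and 0.000782). Against 4 h no probe set passed in limma's test (0.0%; 649 had an unadjusted p under 0.05, the smallest adjusted p was 0.206, and 1 passed with a variance trend and the robust option). A difference that passed at 2 h and not at another hour is therefore not shown to differ between those hours, except for ATP2B4 against 0 h. Among the tests between hours, KLHL21 and FGF18 passed only that against the mean of the other 4 hours. The differences at 8 h and 10 h were not compared with 2 h one by one.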

How the data were processed

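Expression was measured on Affymetrix arrays of total RNA from A549 cells. The values are log2 levels per probe set as deposited by the authors in 1 table; the submitters' processing notes list, with no role or order, the build hg19, limma 3.22.7, RMA and Affymetrix Power Tools. No normalization was added. The sources used here do not say how the 14488 probe sets were chosen, and no detection values were used. Of them 12132 had 1 gene symbol in the platform annotation, 628 several and 1728 none, and genes were named only from the first kind. Through their Entrez identifiers, 12121 of these 12132 matched a current gene record. The number of arrays limits the precision.

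Groups and replicate numbers came from the labels. All 38 arrays entered 1 limma 3.58.1 fit in R 4.3.3 (empirical Bayes, no trend) with a mean per group, 10 in all, which left 28 residual degrees of freedom. Contrasts were knockdown against control at each hour, the difference at 2 h against that at 0 h, at 4 h and the mean of the other 4 hours, and IL1B against 0 h in each arm. Benjamini-Hochberg adjustment ran over all probe sets, and adjusted p under 0.05 was called; every adjusted p is limma's. The script was tested on simulated data. ORMDL3 was also compared by an exact two-sided permutation test over 70 arrangements. Differences are log2 ± standard error. The contrast of IL1B with 0 h shares arrays with that of knockdown at 2 h, so their values are only given side by side.

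Named were the ORMDL genes, the 15 highest and 15 lowest differences, the 8 smallest p of each test between hours, up to 4 members with the largest difference in each of 25 gene lists (1 probe set per gene, the brightest) and further inflammatory, stress and sphingolipid genes fixed by name; not all are printed. Further members of lists that passed, and SGPL1, were named after their values were seen. The members and lists were chosen with earlier results of these data known, so lists are described by counts and medians with no test. The 25 lists are those in the plot of gene lists. Cell type markers came from 5 lists. Promoter letters were counted in Python 3.11.15. Alternatives were the 8 arrays alone, a replicate block (fixed or random), quantile normalization, median centring, a filter on dim probe sets, a variance trend with the robust option, array weights, a covariate for the level of small nucleolar RNAs, adjusted p under 0.01, and leaving out each array.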

Additional observations from a re-analysis of the deposited data

Results flagged for a closer look

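Levels of the genes printed in the report were checked in each group of 4 arrays at 2 h for a single array far from the other 3, in 204 groups of which chance alone picks out about 1 in 20. It did so for 16. In 8 of them the far array was control replicate 4, the array that stands apart over all probe sets. It was high for NAV2 (8.52 against 8.11 to 8.15 in the other controls), ITGB4 (11.06 against 10.55 to 10.62), FOSL1 (10.12 against 9.83 to 9.88) and DICER1 (10.20 against 9.88 to 9.91), and low for SERPINI1 (5.44 against 6.05 to 6.07), ASAH1 (11.36 against 11.59 to 11.60), TNFRSF9 (10.34 against 10.62 to 10.66) and ICAM1 (12.90 against 13.16 to 13.17).

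In the other controls, replicate 2 was high for ORMDL3 itself (7.38 against 7.11 to 7.15) and low for TRAF1 (8.03 against 8.28 to 8.31), and replicate 3 was high for SPTLC1 (9.20 against 8.97 to 9.00). Among the knockdown arrays, replicate 3 was high for SGPP1 (8.06 against 7.81 to 7.85) and low for HHAT (5.81 against 5.91 to 5.92), replicate 4 was high for LOXL2 (11.50 against 11.12 to 11.18), replicate 1 was low for SLC2A1 (11.96 against 12.12 to 12.15), and replicate 2 was low for RFC3 (9.81 against 9.89 to 9.90).

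The difference between the arms itself changed with the hour for 6 probe sets, by limma's test of the difference. Against 0 h, that of TNFRSF9 changed by -1.27 (0.16 at 2 h and 1.44 at 0 h), that of ATP2B4 by 0.67 (0.36 and -0.31), and those of the probe sets without a symbol, 7943413 and 8116418, by -0.96 (0.10 and 1.06) and -0.71 (0.29 and 1.01). Against the mean of the other 4 hours, the difference at 2 h exceeded it by 0.55 for ATP2B4 (0.36 and -0.19), 0.50 for KLHL21 (0.56 and 0.05) and 0.63 for FGF18 (0.36 and -0.27).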

How the results depend on the processing

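The count of probe sets that differed at 2 h, 896, was 291 with the 8 arrays alone, 290 at an adjusted p under 0.01, 2240 with array weights, and 392 to 1502 with 1 array left out. Quantile normalization (1005), median centring (956), a variance trend with the robust option (942) and the small nucleolar RNA covariate (1182) stayed within 1.5 times of it. The filter on dim probe sets, which left out those below the median level, gave 645. Of the probe sets that this filter kept, the main fit had called 518. The count against 0 h, 4, was 829 with array weights and 3 to 10 with 1 array left out. The count against the mean of the other hours, 3, was 5 with quantile normalization, median centring or the covariate, 30 with array weights, 0 at an adjusted p under 0.01, and 0 to 6 with 1 array left out. The count against 4 h, 0, was 1 with a variance trend and the robust option. The causes were not tested.

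Replicate numbers were not treated as pairs in the main fit, and whether they mark pairs was left undecided. Deviations of same-numbered arrays correlated at -0.10, 0.15, -0.01 and 0.20, and numbers 2 and 4 but not 1 and 3 matched best with themselves. With the number as a random block, the correlation within a number was 0.14. Arrays with the same number thus shared some variation, which the main fit left out. With the number as a replicate block, fixed or random, the counts were 1770 and 1566 at 2 h, 7 and 7 against 0 h, 6 and 5 against the other hours, and 0 and 0 against 4 h. A permutation within replicate numbers gave ORMDL3 the same difference, -2.04, with p = 0.125, the smallest that 4 pairs allow. The difference of ORMDL3 lay between -2.10 and -1.98 with 1 array left out.

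Signs turned only among genes that had not passed: ORMDL2 to 0.0039 with median centring and to 0.0133, 0.0032 and 0.0047 without control replicate 2, knockdown replicate 4 and knockdown replicate 2, ICAM1 to 0.0035, CXCL8 to -0.0193, and HSPA5 to -0.0084 with array weights and -0.0311 without control replicate 4. With 1 array left out these genes ranged from -0.0506 to 0.0133 (ORMDL2), -0.1068 to 0.0035 (ICAM1), -0.0193 to 0.1152 (CXCL8) and -0.0311 to 0.05 (HSPA5). HMGCS1, which had not passed, did so with a fixed replicate block (adjusted p = 0.0386). The 90 printed genes that passed kept their sign in every alternative run; 31 lost their call with the 8 arrays alone, 45 at an adjusted p under 0.01, and 3 to 38 with 1 array left out. Signal over background was not given, so dim genes could not be told from silent ones.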
